A study of Homo sapiens with 5 samples.

Results

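Non-homologous end joining genes were examined in HaCaT cells after knockdown of AHNAK. The 9 genes were taken by symbol from the deposited table (LIG4, XRCC4, XRCC5, XRCC6, PRKDC, NHEJ1, DCLRE1C, POLL and TP53BP1), and all 9 were found among its 27933 symbols. HaCaT, an established cell line, derives from human skin keratinocytes and grows without limit in culture. Total RNA was sequenced from 2 control and 3 AHNAK knockdown libraries, as labelled, all grown in the same serum-containing medium. The labels call the treated cells a knockdown and the design text of the series calls them a knockout. They do not say whether the replicates came from separate cultures or whether the 3 knockdown libraries received different interfering RNAs, so p-values here cover the scatter among these libraries alone, and that scatter may be technical.

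Non-homologous end joining rejoins the 2 ends of a broken chromosome without a template. The Ku heterodimer slides onto each end and recruits a large protein kinase, nucleases and polymerases trim or fill the ends, and a ligase held on a scaffold protein seals them. It is the main route of double-strand break repair outside DNA replication and it also joins antigen receptor genes in lymphocytes. AHNAK, a very large scaffold protein, is known to bind the complex of DNA ligase IV (LIG4) with XRCC4, and the values below concern only the transcripts of these genes.

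Values are FPKM, fragment numbers divided by transcript length and by the library's mapped fragments, which allow levels of different genes to be compared because they are scaled to transcript length. Differences on the scale of log2(FPKM + 0.5) are those of knockdown less control, and limma tested them over 12196 genes whose mean reached 1 FPKM. All 9 end joining genes passed that filter. The libraries fall into 2 sets whose low values share the same steps, set A with replicate 1 of the controls and replicates 1 and 3 of the knockdown, and set B with replicate 2 of each. No label describes these sets. Deviations of knockdown replicates 1 and 3 from the gene means were correlated across genes with GC content at Spearman's rho of 0.605 and -0.549, against 0.0022 to 0.185 in the other 3 libraries. Values corrected by loess for the GC content and length of the transcript are therefore given for some genes. Where none is printed the correction can still have moved the difference, as for DCLRE1C, from 0.21 to 0.13. Values of single libraries are listed in the order of their replicate numbers. All 6 keratinocyte markers were above 1 FPKM in every library, and their summed FPKM was 5344 to 6660 in controls and 3730 to 5167 in knockdown. KRT14, TP63, SFN and DSP were each lower in every knockdown library. KRT5 and CDH1 overlapped between the groups, and CDH1 was highest in knockdown replicate 2, at 133.2 FPKM. The sums of the 4 melanocyte, 4 immune and 3 endothelial markers overlapped between the groups and reached at most 2.07, 1.11 and 2.98 FPKM. Their highest members were PMEL (0.927 to 1.74 FPKM), CD14 (0.569 to 1.06 FPKM) and CDH5 (1.44 to 2.49 FPKM), while TYR was listed at 0 in all 5 libraries and PTPRC and CD3E stayed at or under 0.0123 and 0.0524 FPKM. The summed FPKM of the 6 fibroblast markers was 3.301 to 5.02 in controls and 6.12 to 10.2 in knockdown, led in knockdown replicate 2 by DCN at 5.25 FPKM. These markers were divided. DCN, COL3A1 and LUM were higher in every knockdown library. COL1A1 was lower in every knockdown library, at 1.94 and 2.47 FPKM against 1.78, 1.28 and 1.59 FPKM. COL1A2 and PDGFRB stayed at or under 0.1512 and 0.0247 FPKM. The part of the keratinocyte and fibroblast markers in the results was not tested. AHNAK measured 204.8 and 242.0 FPKM in control and 113.9, 69.6 and 115.3 FPKM in knockdown libraries, with no overlap between the groups. Its log2 difference of -1.19 missed the threshold (limma, Benjamini-Hochberg adjusted p = 0.372).

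Because several end joining genes start beside another gene, the DNA before their starts is shown first. In GENCODE release 29 (GRCh38), 5 of the 9 genes have a protein-coding gene that starts within 1000 bases on the other strand, compared with 12.98% of 19902 protein-coding genes. LIG4 (ENSG00000174405.13, chromosome 13, 108207439 to 108218368, minus strand) and ABHD13 are separated by only 10 bases, and XRCC6 (ENSG00000196419.12, chromosome 22, 41621119 to 41664048, plus strand) and DESI1 by 22. These gaps are printed because both genes of each pair were measured, and the stretches before NHEJ1 and TP53BP1 because these 2 genes, like LIG4, were lower in every knockdown library. The sequences come from the RefSeq promoter table (GRCh38.p14), run 5′ to 3′ on the strand of the named gene, and leave out every base annotated as an exon. Capitals mark the GC box, GGGCGG, on either strand.
LIG4, chr13:108218369-108218378, minus strand: agaagccgct
XRCC6, chr22:41621097-41621118, plus strand: cgcatgtgcttacagtcctgac
TP53BP1, chr15:43510729-43510890, minus strand: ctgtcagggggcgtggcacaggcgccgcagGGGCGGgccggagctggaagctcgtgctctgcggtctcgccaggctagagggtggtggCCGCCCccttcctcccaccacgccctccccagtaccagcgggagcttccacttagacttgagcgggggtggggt
NHEJ1, chr2:219160866-219161065, minus strand: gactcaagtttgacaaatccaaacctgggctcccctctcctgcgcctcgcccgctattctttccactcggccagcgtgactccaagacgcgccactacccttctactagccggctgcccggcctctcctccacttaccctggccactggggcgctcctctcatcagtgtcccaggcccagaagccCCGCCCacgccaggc
The TP53BP1 stretch of 162 bases held 2 GC boxes and the NHEJ1 stretch of 200 bases held 1, where 27.7% and 34.7% of 27305 promoters held at least 1 in the same window. The CCAAT box (CCAAT) and the ETS core (CGGAAG), searched on both strands and overlapping no GC box, were not among the letters of any of the 4 stretches. In the same windows, 21.4% and 28.3% of promoters held CCAAT and 8.61% and 11.6% held CGGAAG. A match of letters is a description and not a binding site.

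Levels of the 9 genes spread over a wide range and kept nearly the same order in every library. XRCC6 and XRCC5, the 2 subunits of the Ku heterodimer that binds the broken end, were highest, at control means of 234.5 ± 25.7 and 80.8 ± 3.22 FPKM (SD, n = 2). PRKDC, the catalytic subunit of the DNA-dependent protein kinase that Ku recruits, followed at 48.8 ± 8.61 FPKM (SD, n = 2). The gap-filling polymerase POLL was at 11.8 ± 0.22 FPKM and TP53BP1, the chromatin reader 53BP1 that protects ends from resection, at 11.3 ± 0.55 FPKM (SD, n = 2). NHEJ1 (XLF, which bridges the ends together with XRCC4), XRCC4 (the scaffold of the ligase) and LIG4 (the ligase itself) were at 7.97 ± 0.07, 6.92 ± 0.37 and 5.99 ± 0.46 FPKM (SD, n = 2). DCLRE1C (Artemis, the nuclease that opens hairpin ends) was lowest at 3.33 ± 0.52 FPKM (SD, n = 2). In this order each gene was above the next in all 5 libraries, except NHEJ1 and XRCC4, where NHEJ1 was the higher in 4 of 5. The ranges over the 5 libraries overlapped for POLL with TP53BP1, NHEJ1 with XRCC4, and LIG4 with DCLRE1C. Of these pairs, NHEJ1 and XRCC4 did not differ beyond their spread, while POLL and LIG4 were above their lower neighbour within every library. LIG4 and DCLRE1C did not overlap in the controls but were almost equal in knockdown replicate 2, at 4.588 and 4.58 FPKM.

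**Figure D1:**
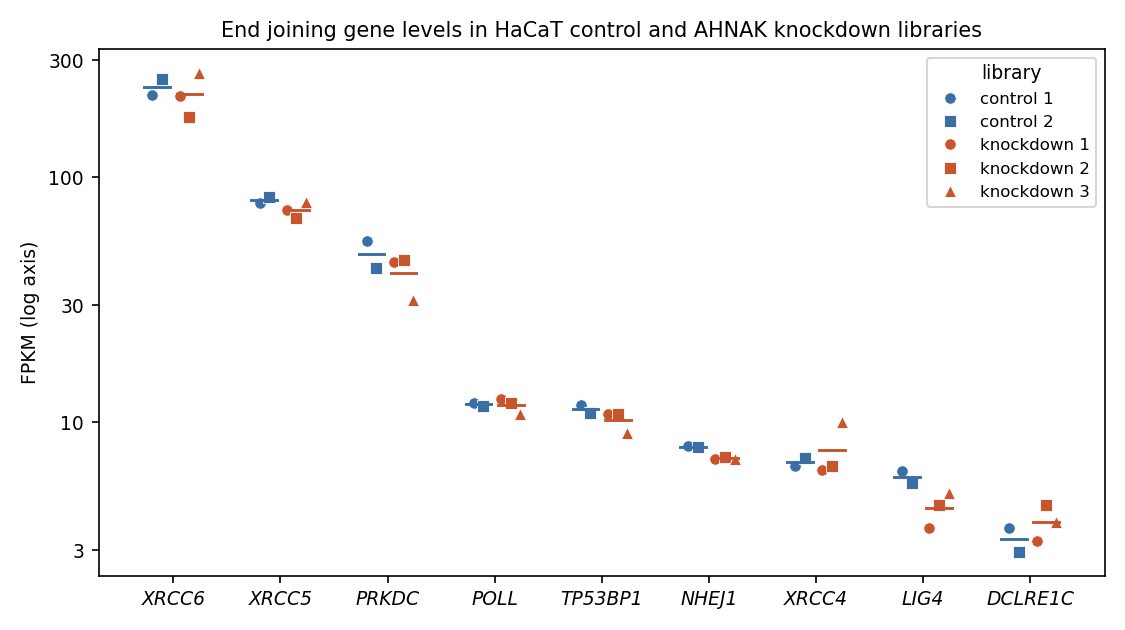
FPKM (log axis) of the 9 end joining genes in each of the 5 HaCaT libraries, with marker shape giving the replicate number and bars the group means (2 control, 3 knockdown). XRCC6 lies between 176.2 and 266.3 FPKM and DCLRE1C between 2.96 and 4.58 FPKM, and LIG4, NHEJ1 and TP53BP1 are lower in every knockdown library.

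The comparison of knockdown with control asked how these transcripts stand where the LIG4-XRCC4 binding partner AHNAK is reduced. None of the 9 genes passed the threshold, and 7 had a negative and 2 a positive log2 difference, with a median of -0.13 against 0.0070 over all tested genes. Limma called 0 of 12196 genes at an adjusted p under 0.05 (0.0% called), while 1427 genes were under 0.05 before adjustment, 759 of them higher and 668 lower (6.22% and 5.48% of those tested), and none of the 9 was among them. LIG4, NHEJ1 and TP53BP1 were lower in every knockdown library than in both controls, which is 3 of 9, and 15.8% of all tested genes did the same. In either direction the groups were apart for 32.0% of tested genes. No end joining gene was higher in every knockdown library, where 16.2% of tested genes were. The median size of a difference, regardless of sign, was 0.14 for the 9 genes and 0.17 for all tested genes. Set A gave a median of -0.04 and set B of -0.10 for the 9 genes.

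**Figure D2:**
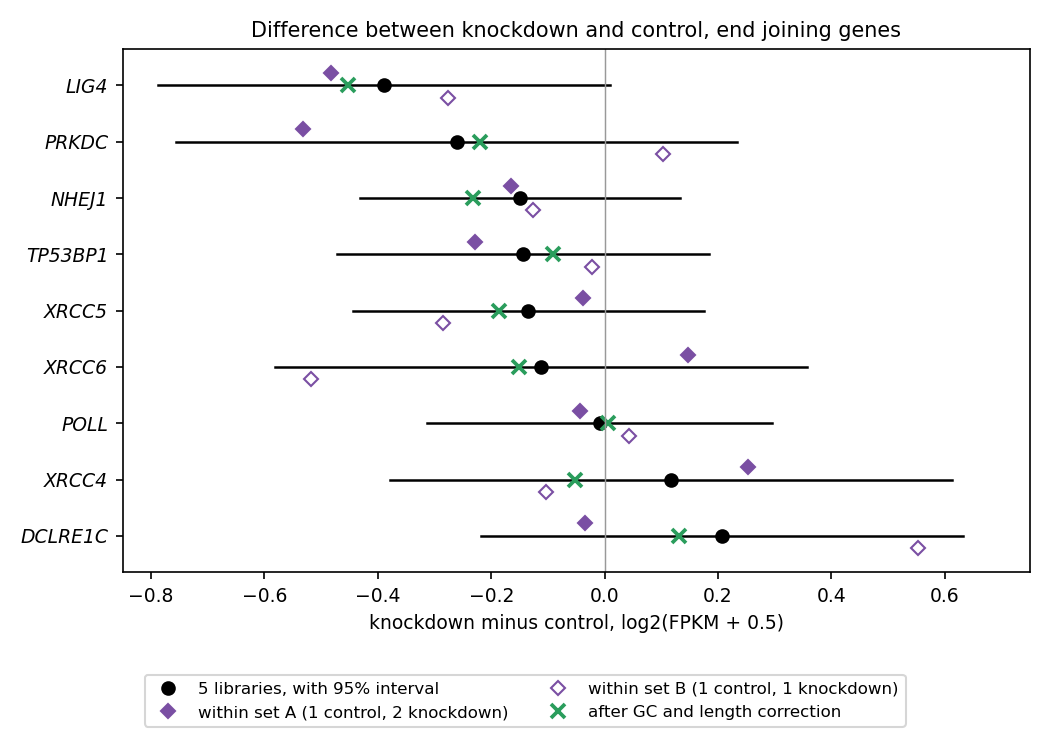
Difference of knockdown from control, as log2(FPKM + 0.5), for each end joining gene, with the 95% confidence interval from limma over the 5 libraries, the differences within each set of libraries, and the value after the GC and length correction. All 9 intervals include 0, LIG4 lies lowest at -0.39, and the differences within the 2 sets have opposite signs for PRKDC, XRCC6, POLL, XRCC4 and DCLRE1C.

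LIG4 had the largest difference of the 9 over the 5 libraries. Without knockdown replicate 1, PRKDC (-0.34) and DCLRE1C (0.32) were further from 0 than LIG4 (-0.27), and without control replicate 1 DCLRE1C (0.34) was further than LIG4 (-0.32). LIG4 measured 6.32 and 5.66 FPKM in control and 3.70, 4.59 and 5.17 FPKM in knockdown libraries. The lowest control thus stood 0.49 FPKM above the highest knockdown library, a narrow gap beside a knockdown range of 1.47 FPKM. The means, 5.99 ± 0.46 FPKM (SD, n = 2) and 4.49 ± 0.74 FPKM (SD, n = 3), stood in the ratio 0.749. On the log2 scale LIG4 differed by -0.39 (SE 0.17, 95% confidence interval -0.79 to 0.0094), with an unadjusted p of 0.0542 and an adjusted p of 0.436 in limma. It was -0.48 within set A and -0.28 within set B. After the GC and length correction the difference was -0.45 (SE 0.11, unadjusted p = 0.00595, limma adjusted p = 0.199), and the groups again did not overlap. With that correction 2185 of 12196 genes had an unadjusted limma p under 0.05, against 1427 without it. LIG4 is a low-GC transcript (36.2% GC over 4180 bases).

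XRCC4, whose protein binds and stabilises LIG4, overlapped between the groups. XRCC4 (ENSG00000152422.15, chromosome 5, 83077498 to 83353787, plus strand) measured 6.66 and 7.18 FPKM in control and 6.40, 6.65 and 10.1 FPKM in knockdown libraries. Knockdown replicate 3 alone stood high and the other 4 libraries lay within 0.79 FPKM of each other. The log2 difference of 0.12 (95% confidence interval -0.38 to 0.61) did not pass (limma adjusted p = 0.839), and it was -0.08 without knockdown replicate 3. XRCC4 has 36.7% GC, and after the GC and length correction its 5 values lay between 2.87 and 3.01 on the log2 scale, with a difference of -0.05.

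NHEJ1, whose protein forms filaments with XRCC4, showed a small and even difference. NHEJ1 (ENSG00000187736.12, chromosome 2, 219075317 to 219160865, minus strand) measured 8.02 and 7.92 FPKM in control and 7.09, 7.21 and 7.10 FPKM in knockdown libraries. The gap between the groups, 0.71 FPKM, was wider than the range within either group. On the log2 scale NHEJ1 differed by -0.15 (SE 0.12, 95% confidence interval -0.43 to 0.13), with a limma adjusted p of 0.638, and -0.17 and -0.13 within sets A and B. Limma draws each gene's variance towards that of genes of like level, so this SE does not rest on the 5 values of NHEJ1 alone. After the GC and length correction it was -0.23 (limma adjusted p = 0.288). NHEJ1 shares 65.4% of its annotated exon bases with AC068946.1, a protein-coding locus on the same strand that has no value here. Whether the annotation behind the FPKM held that locus is not known. How reads of the 2 loci were assigned, and so the level of NHEJ1, is uncertain.

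**Figure D3:**
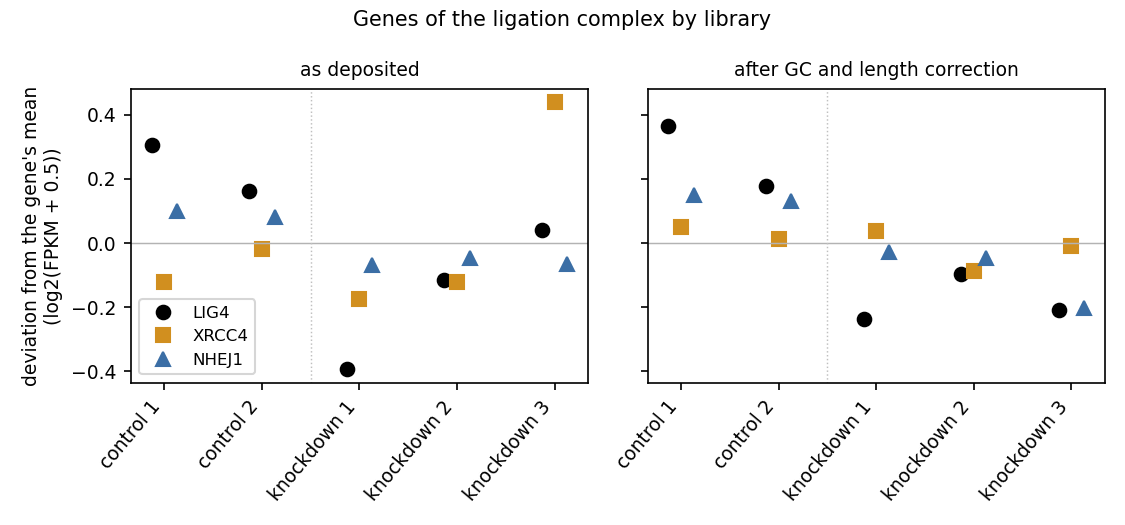
Deviation of LIG4, XRCC4 and NHEJ1 from each gene's mean over the 5 libraries on the log2(FPKM + 0.5) scale, as deposited (left) and after the GC and length correction (right). The XRCC4 point of knockdown replicate 3 stands apart on the left and not on the right, and LIG4 and NHEJ1 are lower in every knockdown library in both panels.

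Both Ku subunits overlapped between the groups. XRCC6 measured 216.4 and 252.6 FPKM in control and 215.4, 176.2 and 266.3 FPKM in knockdown libraries, so that the knockdown libraries held both the lowest and the highest value. Its log2 difference was -0.11 (SE 0.20, limma adjusted p = 0.836), set A giving 0.15 and set B -0.52, and 0.03 without knockdown replicate 2. XRCC5 (ENSG00000079246.15, chromosome 2, 216107464 to 216206303, plus strand) was at 78.5 and 83.1 FPKM against 73.5, 68.1 and 79.4 FPKM, a log2 difference of -0.13 (SE 0.13, limma adjusted p = 0.696) that was -0.079 without knockdown replicate 2. Only knockdown replicate 3 reached the control range, and after the GC and length correction all 3 knockdown libraries were below both controls at a difference of -0.19 (limma adjusted p = 0.3495). XRCC6 has 5 processed pseudogenes in the annotation. Of these, 1 was matched in the table, XRCC6P5, listed at 0 in all 5 libraries, and the others have no value here.

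PRKDC (ENSG00000253729.7, chromosome 8, 47773108 to 47960183, minus strand) measured 54.9 and 42.7 FPKM in control and 45.04, 45.9 and 31.7 FPKM in knockdown libraries. Control replicate 1 was the highest library and knockdown replicate 3 the lowest, while control replicate 2 lay below 2 knockdown libraries. The log2 difference was -0.26 (SE 0.21, limma adjusted p = 0.639), while set A gave -0.53 and set B gave 0.10. It moved to -0.08 without control replicate 1, to -0.44 without control replicate 2 and to -0.09 without knockdown replicate 3. PRKDC was the most variable of the 9, with a highest library 1.73 times its lowest, where the median over all tested genes was 1.44. LIG4 was close behind, at 1.71 times.

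The genes that process the ends or guard them also stayed within their spread or close to it. DCLRE1C (ENSG00000152457.17, chromosome 10, 14897359 to 14954432, minus strand) measured 3.69 and 2.96 FPKM in control and 3.28, 4.58 and 3.93 FPKM in knockdown libraries. Its log2 difference, 0.21 (SE 0.18, limma adjusted p = 0.659), was the highest of the 9 and came from set B, at 0.55 against -0.04 in set A. It ranged from 0.069 without control replicate 2 to 0.34 without control replicate 1. POLL (ENSG00000166169.16, chromosome 10, 101578882 to 101588270, minus strand) was at 12.0 and 11.7 FPKM against 12.5, 12.0 and 10.8 FPKM, a log2 difference of -0.0088 with a 95% confidence interval of -0.31 to 0.295. POLL had a highest library 1.15 times its lowest, and NHEJ1 alone of the 9 varied less, at 1.13 times. TP53BP1 (ENSG00000067369.13, chromosome 15, 43403061 to 43510728, minus strand) was at 11.7 and 10.96 FPKM against 10.9, 10.8 and 9.08 FPKM. Knockdown replicate 3 was low, and the highest knockdown library lay only 0.09 FPKM under the lower control. Its log2 difference was -0.14 (SE 0.14, limma adjusted p = 0.690) and -0.064 without knockdown replicate 3, and the groups overlapped after the GC and length correction at -0.09. TP53BP1 shares 28.7% of its exon bases with TUBGCP4 on the other strand, POLL 4.48% with DPCD and DCLRE1C 2.51% with SUV39H2. Without strand information, reads of such partners cannot be told apart. TUBGCP4 was at 6.575 and 4.775 FPKM in the controls and 4.76, 5.62 and 3.40 FPKM in the knockdown libraries. Like TP53BP1, it was highest in control replicate 1 and lowest in knockdown replicate 3. DPCD was at 5.39 and 7.69 FPKM against 7.86, 6.19 and 9.42 FPKM. SUV39H2, a histone methyltransferase, was at 4.87 and 5.77 FPKM in the controls and 6.32, 6.82 and 9.39 FPKM in the knockdown libraries. The part of these partners in the values of TP53BP1, POLL and DCLRE1C was not tested.

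As folds on the log2(FPKM + 0.5) scale, the 95% confidence intervals of the 9 genes had lower ends from 0.579 (LIG4) to 0.859 (DCLRE1C) and upper ends from 1.01 (LIG4) to 1.55 (DCLRE1C).

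Ratios of (FPKM + 0.5) between partners were taken within each library, where the scaling of the library cancels except for the added 0.5. The ratio of LIG4 to XRCC4 was 0.952 and 0.802 in control replicates 1 and 2 and 0.609, 0.711 and 0.537 in knockdown replicates 1, 2 and 3. Every knockdown library was thus below both controls. On the log2 scale the group means were -0.19 ± 0.18 (SD, n = 2) and -0.70 ± 0.20 (SD, n = 3), a difference of -0.51, with a two-sided exact permutation p of 0.2 (0.8 after Benjamini-Hochberg adjustment over 4 ratios). The smallest p that 2 against 3 libraries allow is 0.1. After the GC and length correction, applied to the ratios after the data had been seen, the difference was -0.40 and the exact p 0.1.

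The other 3 ratios overlapped between the groups before correction. XRCC5 to XRCC6 was 0.364 and 0.330 in the controls and 0.343, 0.388 and 0.2996 in knockdown replicates 1, 2 and 3, so that XRCC6 stood above its partner per length in every library. The log2 difference was -0.02 (two-sided exact permutation p = 0.9). NHEJ1 to XRCC4 was 1.19 and 1.096 against 1.101, 1.078 and 0.721, where knockdown replicate 3, the library of high XRCC4, stood apart (log2 difference -0.27, exact permutation p = 0.5). After the GC and length correction this ratio, like LIG4 to XRCC4, was lower in every knockdown library. On the log2 scale it was 0.13 and 0.15 in the controls and -0.034, 0.074 and -0.16 in knockdown (difference -0.18, exact permutation p = 0.2). PRKDC relative to both Ku subunits, averaged on the log2 scale, was 0.423 and 0.297 against 0.360, 0.421 and 0.220 (log2 difference -0.14, exact permutation p = 0.8). XRCC5 to XRCC6 and PRKDC to the Ku mean still overlapped after the correction, at differences of -0.036 and -0.052.

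**Figure D4:**
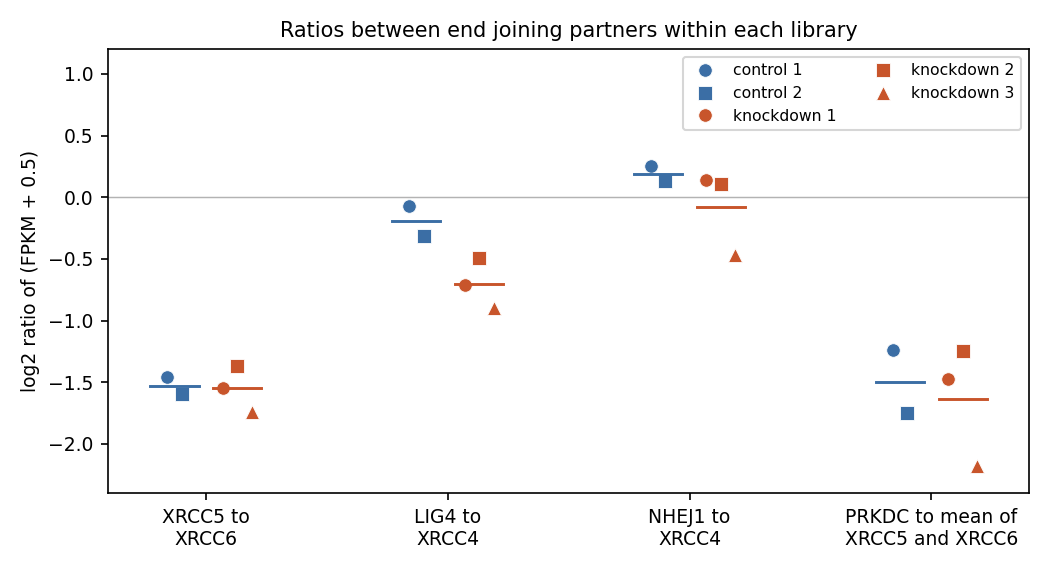
Log2 ratio of (FPKM + 0.5) between end joining partners within each of the 5 libraries, with marker shape giving the replicate number and bars the group means. The LIG4 to XRCC4 ratio is -0.07 and -0.32 in the controls and -0.49 to -0.90 in knockdown, and the other 3 ratios overlap between the groups.

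ABHD13, the gene that starts 11 bases from LIG4 on the other strand, was not lower in knockdown as a group. It measured 3.96 and 4.17 FPKM in control and 3.79, 4.28 and 5.18 FPKM in knockdown libraries, overlapping between the groups. Its log2 difference was 0.10 (SE 0.16, limma adjusted p = 0.826), and sets A and B gave 0.15 and 0.03. Both genes were lowest in knockdown replicate 1, and ABHD13 was highest in knockdown replicate 3 while LIG4 was highest in control replicate 1. ABHD13 is also low in GC (34.1%), and after the GC and length correction its difference was 0.05, with every knockdown library (2.26 to 2.28 on the log2 scale) above both controls (2.20 and 2.24). Whether the differences of LIG4 and ABHD13 are unlike was not tested.

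TMEM167A, a small membrane protein gene that overlaps the start of XRCC4, was highest and lowest in the same libraries as XRCC4 before correction. It measured 14.2 and 16.2 FPKM in control and 10.9, 12.1 and 20.3 FPKM in knockdown libraries, so both genes were highest in knockdown replicate 3 and lowest in knockdown replicate 1. After the GC and length correction TMEM167A was still highest in knockdown replicate 3, at 4.16 on the log2 scale against 3.65 to 4.08 in the other libraries, whereas XRCC4 was at 2.95 there, below both controls at 3.01 and 2.97. DESI1 beside XRCC6 was higher in every knockdown library, at 16.1 and 14.4 FPKM against 17.7, 19.0 and 17.6 FPKM (log2 difference 0.24, limma adjusted p = 0.501). MCM4, a subunit of the replicative helicase whose start lies 2 bases from that of PRKDC, was lower in every knockdown library, at 81.3 and 73.1 FPKM against 72.9, 62.2 and 60.7 FPKM (log2 difference -0.24, limma adjusted p = 0.537). MAP1A, a neuronal microtubule protein gene beside TP53BP1, was at most 0.0701 FPKM and was not tested.

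**Figure D5:**
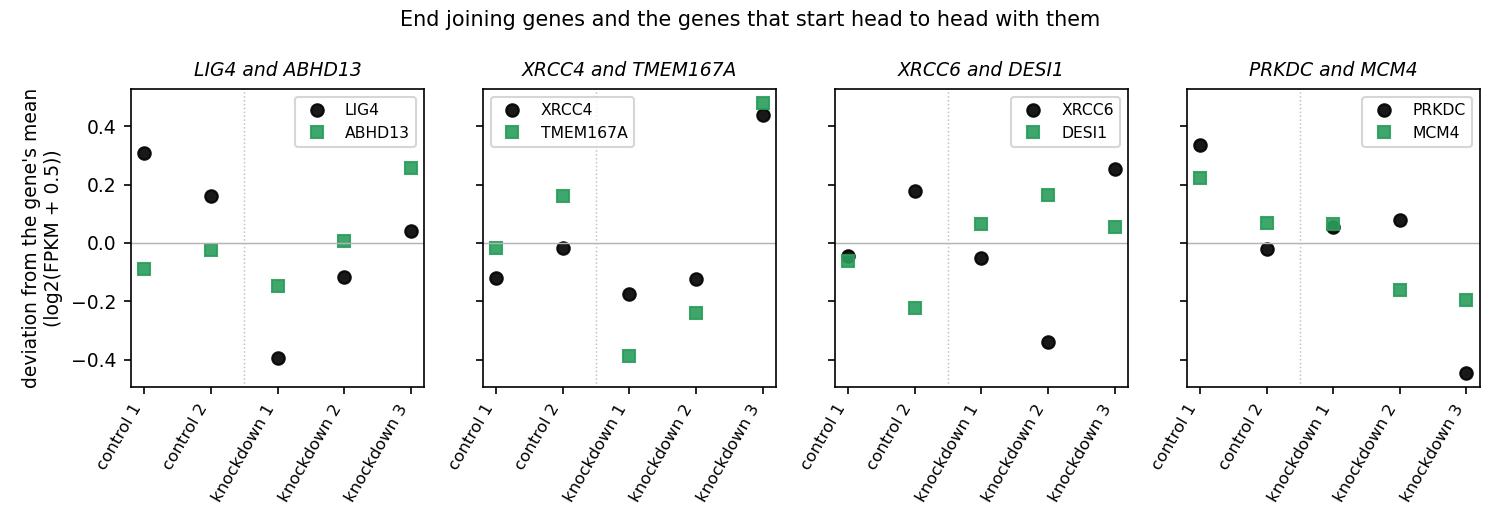
Deviation of 4 end joining genes (circles) and of the genes that start head to head with them (squares) from each gene's mean over the 5 libraries, on the log2(FPKM + 0.5) scale. LIG4 is higher in both controls and ABHD13 is not, while XRCC4 and TMEM167A, as deposited, are both highest in knockdown replicate 3.

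The genes whose pattern over the 5 libraries was most like that of LIG4 were AMMECR1, GALNT5, NCOA7 and CRY1. They were chosen among 8676 other genes whose mean reached 5 FPKM by the root mean square difference between log2 profiles, each centred on its own mean. That difference was 0.058 for AMMECR1, 0.059 for GALNT5, 0.067 for NCOA7 and 0.068 for CRY1, a circadian repressor, against a median of 0.298, and 35 genes were within 0.1 of LIG4. CRY1 measured 6.46 and 5.62 FPKM in control and 4.23, 4.72 and 5.11 FPKM in knockdown libraries. All 4 were lower in every knockdown library, which their choice by likeness to LIG4 fixes.

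LIG4 and the other 2 DNA ligases, added after their values had been seen, differed before correction in which libraries were low. LIG1, the ligase of DNA replication, measured 20.09 and 20.1 FPKM in control and 20.6, 14.2 and 14.0 FPKM in knockdown libraries, low in 2 of 3. LIG3, which acts in single-strand break repair and in mitochondria, was at 15.1 and 11.2 FPKM against 13.4, 14.4 and 8.73 FPKM, with no separation. Their log2 differences were -0.32 and -0.12 (limma adjusted p = 0.549 and 0.859), and LIG1 and LIG3 stood above LIG4 in every library. PAXX, the third XRCC4-like protein of the pathway, was at 46.8 and 45.1 FPKM against 49.4, 40.8 and 39.0 FPKM, and POLM, the polymerase most like POLL, at 7.40 and 8.495 FPKM against 7.58, 5.96 and 5.72 FPKM. Neither passed (limma adjusted p = 0.80 and 0.521). These genes differ in GC content, at 36.2% for LIG4, 56.4% for LIG1, 47.7% for LIG3, 65.4% for PAXX and 61.5% for POLM. Knockdown replicates 1 and 3 deviated with GC content, and its part in these patterns was not tested.

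The wider repair pathway was described with 4 lists. Of 16 end joining accessory and 53BP1 effector genes, 14 were tested, and 12 of these had a negative and 2 a positive difference (median -0.12), with 0 past the threshold. Among the members of smallest p were FAM35A (SHLD2, a subunit of the shieldin complex that limits end resection) and C7orf49 (CYREN, a Ku-binding inhibitor of end joining), at log2 differences of 0.55 and -0.28. C7orf49 was lower in every knockdown library, at 10.00 and 8.92 FPKM against 8.43, 7.89 and 6.85 FPKM. FAM35A measured 4.66 and 7.75 FPKM in control and 9.16, 6.94 and 11.5 FPKM in knockdown libraries, where set A gave 1.06 and set B -0.15. DNTT, the template-independent polymerase of lymphocytes, was listed at 0 in 4 libraries and at 0.0446 FPKM in knockdown replicate 3, and SHLD3 was not matched.

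Break sensing and chromatin signalling genes were divided, with 9 of 17 tested members positive and 8 negative (median 0.05) and 0 past the threshold. ABRAXAS1, a scaffold of a deubiquitinase complex at breaks, measured 1.21 and 1.41 FPKM in control and 1.56, 1.85 and 2.31 FPKM in knockdown libraries (log2 difference 0.40). H2AFX, the histone H2AX that is phosphorylated around breaks, was at 140.7 and 152.0 FPKM against 154.2, 91.1 and 86.4 FPKM (log2 difference -0.45), with knockdown replicate 1 at the control level. H2AFX has 66.4% GC, and after the GC and length correction its difference was -0.36. ATR, the kinase of replication stress, was at 15.2 and 12.9 FPKM against 12.2, 12.7 and 10.7 FPKM (log2 difference -0.23). The smallest limma adjusted p of these 3 was 0.458.

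Alternative end joining and single-strand break repair genes had 7 of 11 members negative and 4 positive (median -0.12), with 0 past the threshold. POLQ, the polymerase that defines alternative end joining, measured 10.1 and 8.34 FPKM in control and 7.08, 7.12 and 6.64 FPKM in knockdown libraries, lower in every library (log2 difference -0.38, SE 0.14, limma adjusted p = 0.395). RBBP8 (CtIP, which starts end resection) was at 30.9 and 30.2 FPKM against 22.4, 20.7 and 27.3 FPKM, also lower in every library (log2 difference -0.38, SE 0.15, limma adjusted p = 0.416). These 2 were the only ones of the 63 tested genes in the 4 lists with an unadjusted p under 0.05, 3.17% against 5.48% of all tested genes that were lower at that p. PARP2, a sensor of strand breaks, was higher in every knockdown library, at 18.9 and 20.3 FPKM against 22.5, 21.8 and 26.8 FPKM (log2 difference 0.26). Homologous recombination genes had 12 of 21 members negative and 9 positive (median -0.07), with 0 past the threshold and differences from -0.25 to 0.27. RPA1, which coats single-stranded DNA, was at 60.1 and 54.7 FPKM against 65.7, 69.8 and 63.0 FPKM (log2 difference 0.20).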

How the data were processed

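RNA of 5 HaCaT libraries (2 control, 3 AHNAK knockdown, grouped by their titles) was analysed. The authors deposited 1 table of FPKM values with a row per gene symbol. Per the submitters' processing notes, HISAT2 2.0.1 and StringTie 2.0.6 were used and the builds GRCh38 and mm9 are named. For the annotation, the strand setting and the role of each build the sources used here give nothing. FPKM sums were 374214.8 to 420540.9 per library, read totals are unknown, and no count test was run.

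Values were fitted as log2(FPKM + 0.5) with limma 3.58.1 in R 4.3.3 (eBayes with an intensity trend, no covariate) for 12196 genes (mean over all libraries of 1 FPKM or more), two-sided, with Benjamini-Hochberg adjustment over all of them and a threshold of 0.05. The step was tested on simulated data. Library sets were found from the commonest ratio of values under 0.3 FPKM between 2 libraries, where at least 10% of those genes shared it. GC content and length are those of the longest transcript of each symbol in GENCODE release 29, known for 96.5% of tested genes, and were corrected by loess (span 0.3).

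The members, lists and tests were chosen with earlier results of these data known. Named genes are the 9 members, AHNAK, the 3 genes of smallest p in each of 4 lists, the 4 genes most like LIG4 and head-to-head neighbours; a few genes that the rule takes are left out of the text, and PAXX, POLM, LIG1 and LIG3 were added after their values had been seen. TUBGCP4, DPCD and SUV39H2 are given outside that rule because they share exon bases with a member. Of the 9 members 7 had a promoter sequence in the RefSeq table.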

Additional observations from a re-analysis of the deposited data

How the results depend on the processing

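Over 17 alternatives the LIG4 difference stayed negative, from -0.49 to -0.27, and its smallest limma adjusted p was 0.0697 (array weights). Many of these fits could not have turned the sign. The groups did not overlap for LIG4, nor for NHEJ1 and TP53BP1, so leaving out a library or changing the pseudocount could not turn it. The filter and the intensity trend do not enter the difference. The LIG4 difference was -0.49 with the replicate number as a block (limma adjusted p = 0.620), the same as without knockdown replicate 3. Same-numbered libraries lie in the same set, replicate 1 in set A and replicate 2 in set B. Their deviations from their group means correlated over 12196 genes at -0.06 and -0.58. With 2 controls, whose deviations mirror each other, these correlations cannot show whether a shared number marks a pair. Under the block 977 genes had an unadjusted limma p under 0.05. In every alternative fitted, 5 other members kept their sign but not their size: NHEJ1 lay between -0.23 and -0.13, XRCC5 between -0.22 and -0.079, PRKDC between -0.44 and -0.082, TP53BP1 between -0.20 and -0.064 and DCLRE1C between 0.069 and 0.36. No member passed in any. DCLRE1C gave no value with a mean of at least 5 FPKM, where it is left out. Genes past the threshold over the whole table numbered 1 with a pseudocount of 1, 1 without an intensity trend, 1 at an adjusted p under 0.1 and 1428 with array weights (3.98 for knockdown replicate 2, 0.257 for replicate 3). Leaving out libraries in turn gave 0 to 9, the 9 without control replicate 1. The median of the members was -0.19 with equal FPKM sums, which moved the median of all genes to -0.04, and -0.090 with the replicate block. Leaving out libraries gave -0.13 to -0.079, the latter without knockdown replicate 2. XRCC4 turned to -0.051 with the GC and length correction, -0.028 with array weights and -0.079 with the block or without knockdown replicate 3 (leaving out libraries, -0.079 to 0.23). XRCC6 turned to 0.035 without knockdown replicate 2 (range -0.26 to 0.035) and was -0.34 with array weights. POLL, which lay near 0, turned to 0.0082 with equal medians, 0.0083 with quantile normalization, 0.0068 with the GC and length correction, 0.021 with array weights, 0.049 with the block or without knockdown replicate 3 and 0.0096 without control replicate 1 (range -0.050 to 0.049). ABHD13 turned to -0.013 with the block or without knockdown replicate 3 (range -0.013 to 0.19) and TMEM167A to 0.047 without knockdown replicate 1 (range -0.39 to 0.047). LIG3 was 0.094 with array weights, 0.093 with the block or without knockdown replicate 3 and 0.090 without control replicate 1 (range -0.33 to 0.093). AHNAK, RBBP8 and AMMECR1 passed with array weights, at -1.55, -0.52 and -0.41. Leaving out libraries, XRCC5 to XRCC6 ranged from -0.11 to 0.073 and PRKDC to the Ku mean from -0.39 to 0.14, both positive without control replicate 1 or knockdown replicate 3 (0.049 and 0.12, 0.073 and 0.14), while LIG4 to XRCC4 stayed between -0.63 and -0.38. The cause of these changes was not tested. FPKM carry no read totals, so the depth behind each value is unknown.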
